A study of Mus musculus with 2 samples.

Results

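Ramp2, Plvap, Cd34, Cdh5 and Sox18 are genes used to recognise endothelium, the lining of blood vessels, and they were followed here in nephron progenitor cells sorted from embryonic mouse kidney. The 5 genes were taken by symbol from the authors' deposited table of 10627 genes, and all 5 are in it. One library came from wild-type cells (WT, Six2CreGFP+;p53+/+) and one from knockout cells (KO, Six2CreGFP+;p53f/f), both from embryonic day 15.5 on a mixed CD1 and C57BL background. Both groups carry the Six2CreGFP transgene, which gives the sorted progenitors their GFP and drives Cre, the recombinase that deletes the floxed p53 alleles (gene Trp53) in KO. Cre follows Six2, a gene of the progenitors and not of endothelium, and whether vessel cells in the KO sample carry the deletion was not tested. The labels do not say how many embryos went into each sample.

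Endothelial cells form the vessels that grow around the cap mesenchyme, the layer of nephron progenitors at the tip of each branch of the developing collecting system. They are a lineage of their own and are not made by Six2-expressing progenitors, and whether the transcripts described here came from vessel cells, from free RNA or from the progenitors themselves was not tested. Among the 5 genes, Cdh5 codes for VE-cadherin, which joins endothelial cells to each other. Plvap codes for the protein of the diaphragms that span fenestrae and caveolae in vessel walls, and Cd34 for a sialomucin on the surface of endothelial and early blood cells. Ramp2 codes for the partner protein that makes the receptor Calcrl respond to adrenomedullin, and Sox18 for a transcription factor of vessel and lymphatic development.

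Values are read densities in RPKM, reads scaled to the length of the gene model and to the depth of the library, in 1 library per genotype. With no replicates there is no spread between samples and no test of genotype, and each 95% exact (Clopper-Pearson) interval below covers counting error only. The implied depth was about 91200000 reads in WT and 85600000 in KO. The targeted gene Trp53 was at 33.9 RPKM in WT against 5.38 in KO. Six2 was at 482 and 509 RPKM. The table holds genes with a corrected p-value under 0.05 between the libraries, so a gene with few reads had to differ by a larger ratio than one with many to be in it.

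All 5 endothelial genes were lower in the KO library, by very different amounts. Cdh5 differed most, Sox18 and Plvap came next, and Cd34 and Ramp2 differed least. On the main measure, log2(density + 1) in KO minus the same in WT, 3 of the 5 (Plvap, Cdh5 and Sox18) were at least 1.5-fold lower and none was higher. Of all genes in the table, 5.49% were at least 1.5-fold lower on this measure, 0.951% at least 1.5-fold higher, and 63.9% lower by any amount. The share at least 1.5-fold lower was 8.57% of genes under the median mean density of 7.30 RPKM, where Cd34, Cdh5 and Sox18 lie, and 2.41% of those at or over it, where Plvap and Ramp2 lie. The median of the 5 differences was -0.60, beside -0.11 over all genes. In bulk samples, fewer cells of a type and less RNA per cell cannot be told apart.

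**Figure D1:**
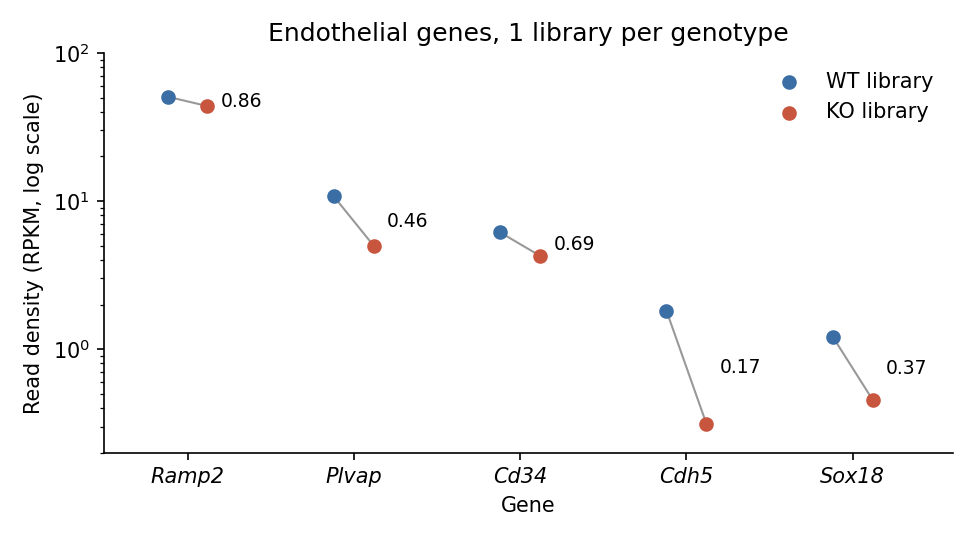
Read density (RPKM, log scale) of each gene in the WT library (blue) and the KO library (red), 1 library each, with lines joining the libraries and the KO to WT ratio printed beside each pair. Each red point lies below its blue point, and the drop is longest for Cdh5 and shortest for Ramp2.

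Cdh5 (ENSMUSG00000031871, chromosome 8, 104101625 to 104144502, plus strand, GRCm38) was at 1.82 RPKM in WT against 0.313 in KO. This junction gene had the lowest KO to WT ratio of the 5, 0.173 (95% exact interval 0.139 to 0.212). A model length of 3986 bases turns both densities into whole reads, 660 in WT and 107 in KO. Its log2 difference was -1.10 with the pseudocount of 1 and -2.53 without it, since the pseudocount is large beside a density this low.

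Plvap (ENSMUSG00000034845, chromosome 8, 71497754 to 71511769, minus strand) was at 10.7 RPKM in WT against 4.98 in KO. It is the most abundant of the 5 whose exons no other annotated gene shares, and its ratio of KO to WT was 0.464 (interval 0.428 to 0.503). These densities correspond to 1973 reads in WT and 859 in KO over 2015 bases. The log2 difference was -0.97, and it stayed past 1.5-fold under each of the other scalings and pseudocounts tried.

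Sox18 (ENSMUSG00000046470, chromosome 2, 181669836 to 181671640, minus strand) was at 1.21 RPKM in WT against 0.454 in KO. The ratio was 0.375 (interval 0.277 to 0.502), and it rests on the fewest reads of the 5 genes, 179 in WT and 63 in KO over 1620 bases. Its interval overlaps that of Plvap, while the intervals of the other genes are separate from each other and from these. The log2 difference of -0.60 lay close to the 1.5-fold limit and went inside it, to -0.49, when the libraries were centred on the median difference of all genes, and also once GC content and gene length were corrected for.

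Cd34 (ENSMUSG00000016494, chromosome 1, 194938821 to 194961292, plus strand) was at 6.14 RPKM in WT against 4.26 in KO. The ratio was 0.694 (interval 0.661 to 0.729, from an estimated 4084 and 2662 reads), so the KO library kept more of this transcript than of Plvap, Sox18 or Cdh5. The log2 difference was -0.44, inside 1.5-fold. Cd34 has the lowest GC content of the 5, at 42.8%, and genes in its bin of GC content and length had a median difference of 0.15, against -0.22 for the bin of Plvap and Sox18. With that bin median taken out and the median over all binned genes put back, Cd34 stood at -0.70, past 1.5-fold. That overall median is itself negative, so part of the -0.70 is the general shift of the table. Of its 7290 exon bases, 148 are shared with Gm16897, an antisense gene on the other strand, and the strand used in counting is not given in the sources used here.

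The 250 bases before the Cd34 start site are shown because Cd34 is the 1 of the 5 genes with a promoter in the RefSeq table used (GRCm38.p6, chr1:194938571-194938820, plus strand, read 5′ to 3′). Capitals mark CTTCCT, the reverse complement of AGGAAG, a core sequence of the ETS factors that endothelial cells express, such as Erg and Fli1.
Cd34: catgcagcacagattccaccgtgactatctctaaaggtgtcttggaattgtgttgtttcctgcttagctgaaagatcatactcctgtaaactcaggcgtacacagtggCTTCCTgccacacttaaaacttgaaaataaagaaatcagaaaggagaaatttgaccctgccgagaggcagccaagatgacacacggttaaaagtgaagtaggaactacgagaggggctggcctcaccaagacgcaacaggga
On either strand, AGGAAG is in 35.1% of the 32544 promoters of 300 bases in that table. The other ETS sequence searched, CCGGAA, was not found on either strand of the Cd34 promoter of that length and is in 15.0% of all of them. The same held for a SOX sequence, ACAAAG, which 18.7% of promoters hold, and for a GATA sequence, AGATAA, which 11.2% hold. Neither the TATA box sequence TATAAA (13.6% of promoters) nor the consensus decamer of p53 (8.36%) was found there.

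Ramp2 (ENSMUSG00000001240, chromosome 11, 101246028 to 101259546, plus strand) was at 50.7 RPKM in WT against 43.8 in KO. It had by far the highest density of the 5 and the smallest difference, a ratio of 0.863 (interval 0.843 to 0.884, from an estimated 15264 and 12372 reads). Its log2 difference was -0.21, and -0.093 after centring on the median difference of all genes. Genes in its bin of GC content and length had a median difference of -0.20, close to that of Ramp2 itself.

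The deposited coordinates of Ramp2 reach across the whole of Vps25 except its last bases. Vps25 is a neighbour on the same strand that codes for a subunit of the ESCRT-II sorting complex, used by cells in general. One annotated Ramp2 transcript, marked for nonsense-mediated decay, runs on to 13518 bases from the start of the gene, while the other Ramp2 transcripts end by 2222 bases. The gene models share 1103 exon bases, 33.4% of the Ramp2 exons and 67.2% of the Vps25 exons. Vps25 itself was listed at 0.836 RPKM in WT against 0.492 in KO. Snf8, another ESCRT-II subunit, which was named after its values were seen, was at 4.45 and 3.51 RPKM. How the authors divided reads between the overlapping models is not given in the sources used here, so the Ramp2 density may hold reads of Vps25, and this was not tested.

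**Figure D2:**
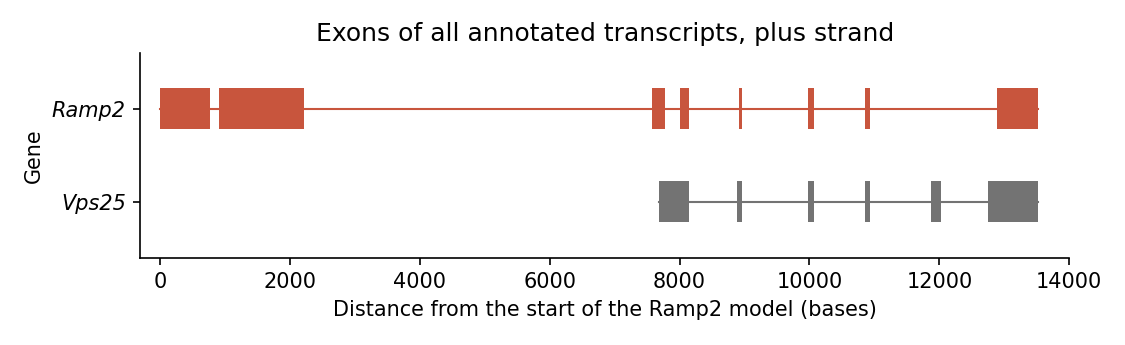
Exons (boxes) of all annotated transcripts of Ramp2 (red) and Vps25 (grey), drawn to scale by distance in bases from the start of the Ramp2 model, both on the plus strand. The first exon blocks of Ramp2, up to 2222 bases, are its own, and the later blocks, up to 13518 bases, lie over those of Vps25.

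Whole reads came out more often for genes whose models overlap no other. For Cdh5, Plvap and Sox18, 1 model length each gave whole reads in both libraries (within 0.003 of a read or, where larger, 1.2e-07 of their number, over lengths from 0.6 to 1.5 times the annotated one). For Ramp2, Cd34 and Vps25 no length did. Across genes under 3000 reads, the annotated length gave whole reads in both libraries, within 0.01, for 55.6% of 3295 genes that share no exon with another gene and for 19.3% of 1699 genes that do. Reads, and hence intervals, of Ramp2 and Cd34 are therefore estimates from the annotated length.

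In WT the order of the densities was Ramp2, Plvap, Cd34, Cdh5 and Sox18. In KO the last 2 changed places, with Sox18 at 0.454 RPKM and Cdh5 at 0.313, though no replicate shows whether these neighbours in the order differ beyond their spread. In the authors' deposited table, which carries a further library scaling of 1.04, the folds of WT over KO were 1.11 for Ramp2, 2.07 for Plvap, 1.38 for Cd34, 5.57 for Cdh5 and 2.56 for Sox18. The corrected p-value in the authors' deposited table was 0 for 4 of them and 1.25e-11 for Sox18. Those p-values compare the 2 libraries, not the genotypes.

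Other endothelial markers were lower in KO as well. Of a list of 52 further markers, 47 are in the table, 44 of them lower and 3 higher. Of all genes 63.9% were lower by any amount. Under the median mean density, where all but 2 of the 47 lie, 71.9% were. The 5 names outside the table, Calcrl, Vwf, S1pr1, Nostrin and Tal1, are not analysed here. At 1.5-fold on log2(density + 1), 8 were lower and none higher, with a median difference of -0.36. Most of these genes were near the bottom of the density range, with a WT median of 0.722 RPKM against 7.35 RPKM over all genes, and the pseudocount hides most of their ratio. On the plain ratio, 41 of the 47 were at least 1.5-fold lower and 1 higher, and the median ratio was 0.403. Over all genes above 0 in both libraries 21.5% were at least 1.5-fold lower on the plain ratio, 3.76% at least 1.5-fold higher, and 41.2% of genes under the median mean density were at least 1.5-fold lower. The median ratio was 0.904 over all genes and 0.751 over those low ones. Those low genes are still more abundant than the markers. A mean density of at least 1 RPKM was reached by 2995 of the 5308 low genes and by 9 of the 47 markers. Since genes with few reads had to differ by a larger ratio to be in the table, these shares are not matched to the markers.

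**Figure D3:**
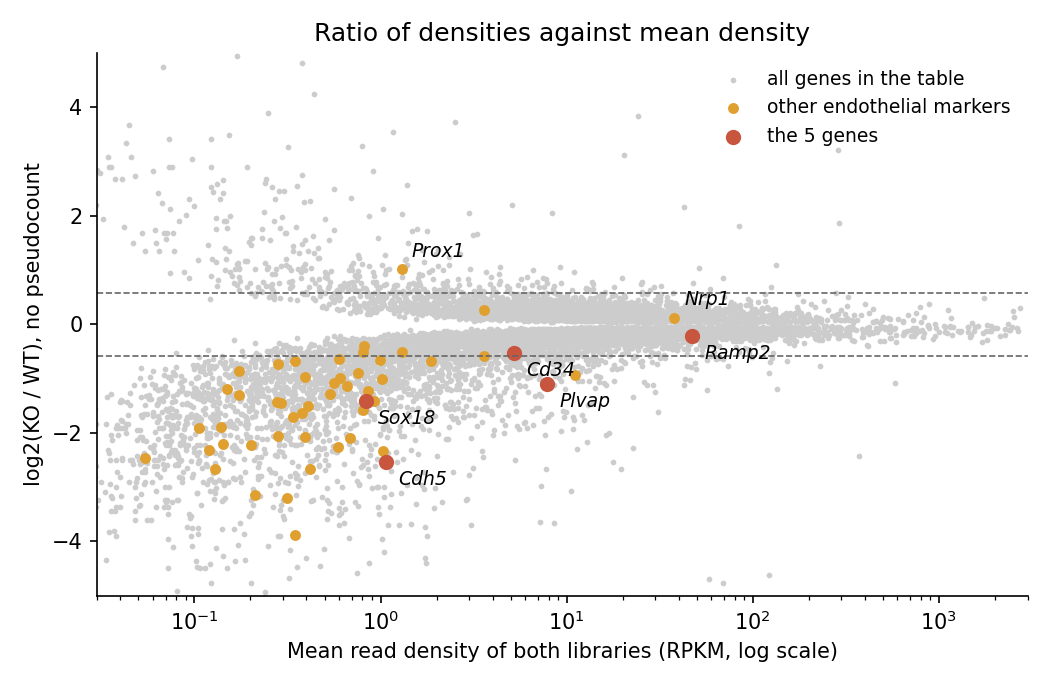
KO to WT ratio of densities (log2, no pseudocount) against mean density of both libraries (RPKM, log scale) for all genes above 0 in both (grey), 47 endothelial markers (orange) and the 5 genes (red), with dashed lines at 1.5-fold and 82 of 10372 genes outside the plotted range. Grey points near 0 are fewer at low density than at high density, and most orange points lie among the lower grey points.

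The junction and surface genes spanned a wide range. Cldn5, which codes for the tight junction protein claudin-5, was the most abundant of them at 14.6 RPKM in WT against 7.61 in KO, a ratio of 0.521 (interval 0.481 to 0.564) that is close to the 0.464 of Plvap. Pecam1, the adhesion molecule CD31, was at 1.12 and 0.263 RPKM, and Icam2, which binds leukocyte integrins, at 0.564 and 0.0613. Esam, another junction molecule, was at 0.761 and 0.358. Pecam1, Icam2 and Esam, and the other genes up to the end of the next paragraph that are not among the 10 most abundant markers, were named after their values were seen.

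Among the receptors, the tyrosine kinase gene Tie1 stood at a ratio of 0.158 and its relative Tek, the angiopoietin receptor, at 0.306. The VEGF receptor genes were at ratios of 0.202 for Flt1, 0.238 for Kdr and 0.762 for Flt4, the last of which lymphatic vessels use. Aplnr, the apelin receptor, was at 1.73 RPKM in WT against 0.341 in KO, a ratio of 0.197 (interval 0.159 to 0.243) that overlaps the interval of Cdh5. The lowest ratio of the list was 0.068, for Gpihbp1, which holds lipoprotein lipase on capillaries, from an estimated 151 and 10 reads. Ranked with these 47 markers, Cdh5 had the sixth lowest ratio of 52. Sox18 was at rank 25, Plvap at 31, Cd34 at 45 and Ramp2 at 49.

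The rest of the 10 most abundant markers held both lower and higher genes. Kank3 was at 4.33 RPKM in WT against 2.87 in KO, Rasip1, a regulator of vessel lumen formation, at 2.31 and 1.44, and Tmem204 at 1.37 and 0.676. Grrp1 was at 1.52 and 1.07, and Nrp2, a co-receptor for VEGF and semaphorins, at 1.22 and 0.772. The 3 markers that were higher in KO were Nrp1, the other such co-receptor, at 36.0 and 39.3 RPKM, the transcription factor gene Mecom at 3.28 and 3.95, and Prox1, a regulator of lymphatic identity, at 0.857 and 1.74. Lyve1, another lymphatic marker, was lower, at 0.572 and 0.184. All 3 of the higher genes share exon bases with another annotated gene, but few of them. The shared bases were 80 of 9785 for Nrp1, 81 of 12427 for Mecom and 133 of 8390 for Prox1. Of the 34 markers that share none, all 34 were lower and 7 were at least 1.5-fold lower. Most markers that do share exon bases were lower as well. This split was made after the values were seen, and the part of shared exons in the 3 higher values was not tested.

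The genes around each of the 5 were taken by role. Of 9 names of the adrenomedullin and CGRP system, to which Ramp2 belongs, Ramp3 and Ramp1 are in the table, and Calcrl, Adm and the others are not analysed here. Ramp3 was at 2.23 RPKM in WT against 1.31 in KO, a ratio of 0.588 (interval 0.480 to 0.717), and Ramp1 at 0.145 and 0.058. Both were thus lower, and the Ramp3 ratio is below that of Ramp2.

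Among 16 junction partners of VE-cadherin in the table, 12 were lower and 4 higher, with a median log2 difference of -0.10, close to that of all genes. The catenin genes that Cdh5 shares with other cadherins were all inside 1.5-fold. Ctnnb1 was at 176 RPKM in WT against 192 in KO, Ctnna1 at 94.3 and 88.3, and Ctnnd1 at 34.2 and 36.1. Jup, the gene of gamma-catenin, differed most of these 4, at 6.36 and 5.36, a ratio of 0.841 (interval 0.802 to 0.883). The 2 of the 16 at least 1.5-fold lower were Cldn5 and Pecam1, both endothelial markers.

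Of the CD34 family and its ligands, 3 of 6 names are in the table. Podxl, which codes for the sialomucin podocalyxin of podocytes and endothelium, was at 8.99 RPKM in WT against 1.59 in KO, a ratio of 0.177 (interval 0.163 to 0.191), far below that of its relative Cd34. Crkl, an adaptor that binds CD34, was at 38.0 and 43.9 RPKM. All 8 podocyte markers in the table, Podxl among them, were lower, where 63.9% of all genes were. They include Cdkn1c, a cell cycle inhibitor gene (291 and 170 RPKM), Vegfa (54.3 and 51.6), the closest to equal of the 8, and Synpo (1.73 and 0.654). Their part in the Podxl value was not tested.

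Of 12 genes in the table for group F Sox factors, their partners and targets, 7 (58.3%) were lower and 5 higher, beside 63.9% lower over all genes. Erg, Fli1, Prox1, Sox17 and Sox7 are also in the endothelial list. The close relatives of Sox18, Sox7 and Sox17, were at 0.246 and 0.330 RPKM in WT and 0.099 and 0.070 in KO, ratios of 0.403 and 0.213. The ETS factor genes Fli1 and Erg had ratios of 0.425 and 0.628. Vcam1, an adhesion molecule described as a Sox18 target, was at 4.16 and 1.38 RPKM. It was the 1 gene of the list at least 1.5-fold lower on log2(density + 1), where 5.49% of all genes were. Nr2f2, a regulator of venous identity that stroma also expresses, was at 140 and 163 RPKM, and Tfrc, the transferrin receptor, at 28.1 and 33.0.

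Signals that act on vessels were described by the same counts. Of 17 such genes in the table, 13 were lower, 4 of them at least 1.5-fold, and 4 were higher, with a median ratio of 0.776. Over all genes 63.9% were lower, 5.49% at least 1.5-fold, and the median ratio was 0.904. Vegfa, the main growth factor for endothelium, was at 54.3 RPKM in WT against 51.6 in KO, and Sema3f at 63.7 and 66.1. The 4 at least 1.5-fold lower were Figf, which codes for VEGF-D (3.66 and 0.989 RPKM), Sema3a (2.47 and 1.10), Angpt2 (1.35 and 0.503) and Pdgfb (0.857 and 0.164). Endothelial cells are a known source of the last 2 factors.

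Markers of other cell types moved in the same direction in the same pair of libraries. The counts below stand beside 63.9% of all genes lower by any amount, and 71.9% of genes under the median mean density. The 13 leukocyte markers were all lower, with a median ratio of 0.179 and a summed density of 17.9 RPKM in WT against 2.97 in KO, C1qb (4.25 and 0.644) and C1qa (2.71 and 0.382) of the complement system among them. Of 10 erythroid genes 9 were lower, with sums of 661 and 56.9, the globins Hbb-b1 (237 and 9.69 RPKM) and Hbb-b2 (145 and 4.45) among them, whose near-identical copies make each value uncertain. Of 13 genes of mural cells, the muscle cells and pericytes around vessels, 12 were lower, with a median ratio of 0.353 and sums of 141 and 102. The most abundant of them, the filament gene Des (42.0 and 50.7) and the receptor gene Notch3 (19.8 and 16.3), were closer between the libraries. Of 16 stromal genes 14 were lower, with a median ratio of 0.311 and sums of 645 and 497, of which Aldh1a2, for retinoic acid synthesis (272 and 286), and the transcription factor gene Tcf21 (79.5 and 51.9) make up the most. All 8 genes of the blood progenitor and platelet list, where Cd34 is also expressed, were lower, with sums of 37.3 and 8.99. The endothelial list, with a median ratio of 0.403, summed to 89.3 and 68.2 RPKM, and Nrp1 makes up the largest share of both sums. No marker of these lists in the table was at 0 in WT, and in KO 1 was, the blood gene Gata1. A gene at 0 in both libraries could not be in the table, so this does not show that every listed name was detected. The part of other cell types in the values of the 5 genes was not tested.

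**Figure D4:**
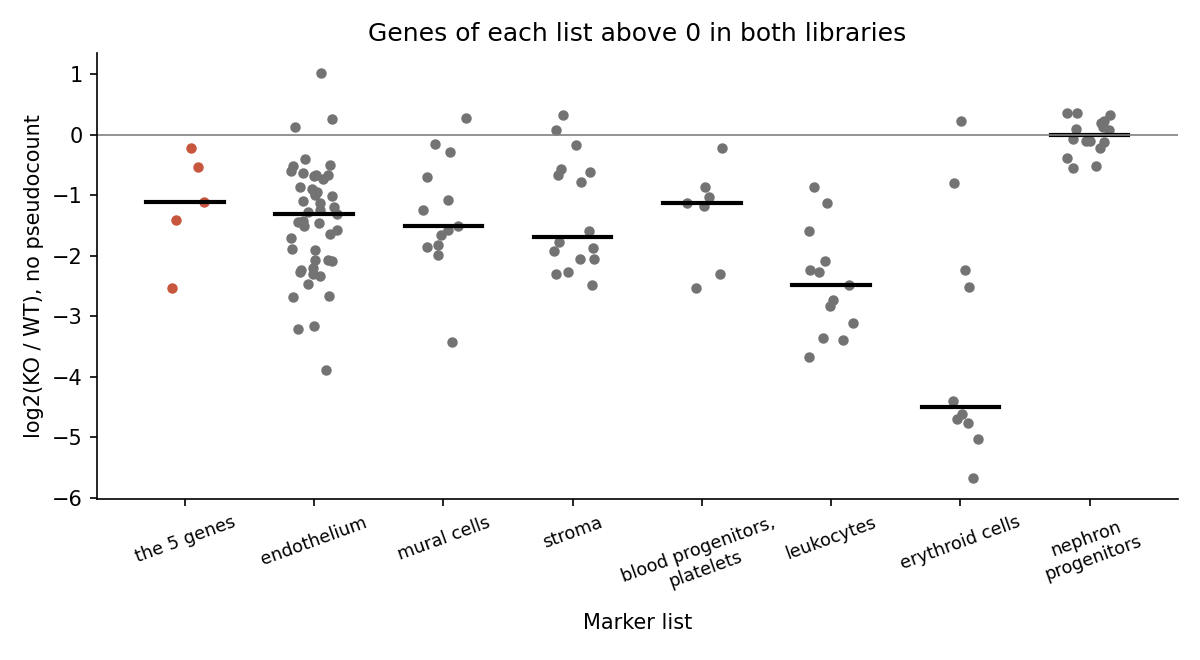
KO to WT ratio (log2, no pseudocount) of every gene of each marker list that is above 0 in both libraries, 1 point per gene, with a bar at the median and random sideways spread. The endothelial, mural, stromal, blood and leukocyte medians lie below -1, and the nephron progenitor median lies at 0.

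Nephron progenitor genes did not share this direction. Of 16 in the table, 8 were higher and 8 lower in KO, none past 1.5-fold, with a median log2 difference of 0.0015 and sums of 1296 and 1347 RPKM. Of these 16, 15 were at or over the median mean density, as were 12 of the 16 stromal genes but only 2 of the 47 endothelial markers. Among all 5309 such abundant genes 55.8% were lower, 2.41% at least 1.5-fold, and 35 were at least 1.5-fold higher. A count of 0 past 1.5-fold among 16 is thus near the share of abundant genes. Sall1 was at 184 RPKM in WT against 211 in KO, and Eya1 at 66.8 and 84.1. Set beside Six2, at 482 and 509 RPKM, the vessel gene Cdh5 was a minor transcript in both libraries.

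The genes with densities most like each of the 5 were sought among 8856 genes that are not predicted genes, pseudogenes or small RNAs, by Euclidean distance on log2(density + 1) in the 2 libraries. Nearest to Cdh5 were Cyp4a31 (distance 0.045) and Aplnr (0.055), the second of them an endothelial marker. Plvap lay nearest to Serping1 (0.043), an inhibitor of complement, and Apoe (0.057), the apolipoprotein, and Sox18 to the complement gene C1ra (0.021) and the serotonin receptor gene Htr2b (0.024). Cd34 lay nearest to Aldh1b1 (0.036) and Timp1 (0.043). Ramp2 lay nearest to Uqcrh (0.022), of the respiratory chain, and Eif3k (0.028), of translation initiation, genes that most cells express. With 2 libraries these distances rest on 2 values per gene.

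The angiogenesis term in the Gene Ontology column of the authors' deposited table is attached to 134 genes, Ramp2 and Sox18 among them. Of these, 100 (74.6%) were lower in KO by any amount, where 63.9% of all genes were. At least 1.5-fold lower on log2(density + 1) were 18 (13.4%), where 5.49% of all genes were. None was at least 1.5-fold higher on this measure, where 0.951% of all genes were. On the plain ratio, 52 were at least 1.5-fold lower and 3 at least 1.5-fold higher. Those shares over all genes above 0 in both libraries were 21.5% and 3.76%. The 134 genes were not matched to all genes by density.

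How much each value depended on the treatment of low densities differed by gene. For Ramp2, at 50.7 RPKM, pseudocounts from 0.25 to 4 moved the difference between -0.21 and -0.20. For Cdh5 the same pseudocounts gave -1.87 and -0.43, and for Sox18 -1.05 and -0.23, so that Plvap was the 1 gene past 1.5-fold at the larger pseudocount.

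**Figure D5:**
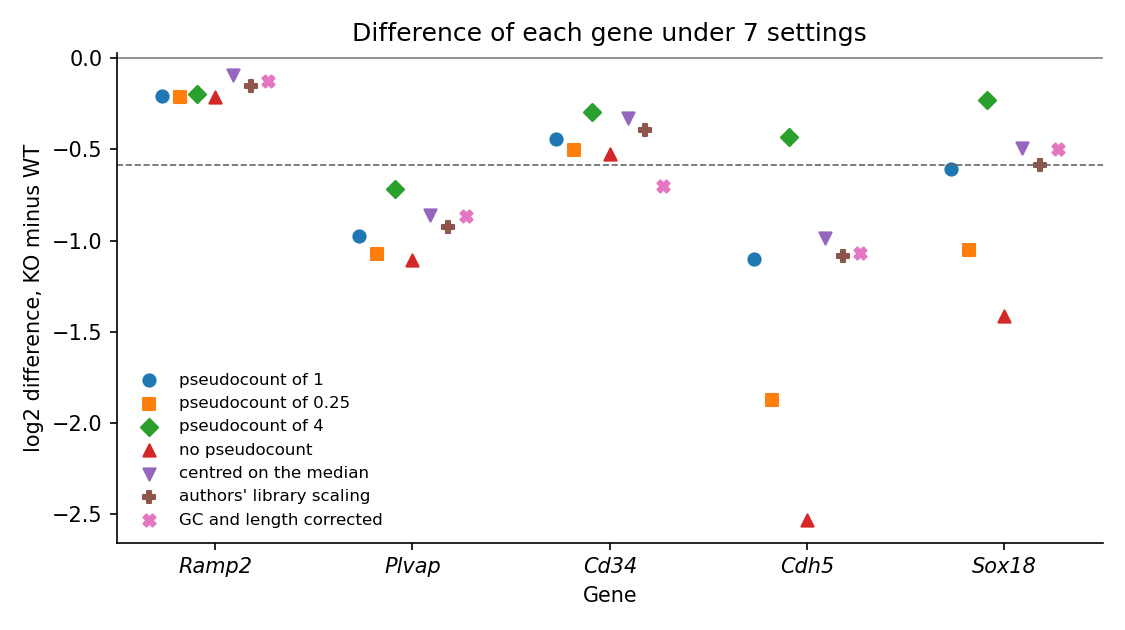
Log2 difference (KO minus WT) of each gene under 7 settings, 1 marker shape per setting, with a dashed line at 1.5-fold lower. All points lie below 0, the points of Ramp2 lie close together between -0.21 and -0.093, and those of Cdh5 spread from -2.53 to -0.43.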

How the data were processed

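RNA of sorted cells was sequenced, 1 library for each genotype. The submitters' processing notes name CASAVA 1.8, Novoalign 2.08.02 and FastQC, and the builds mm10 and GRCm38, without roles. How reads were counted, and on which strand, is not given in the sources used here. The deposited table has, per the file headers, a read density for each library, which behaves as RPKM (read from the values), a p-value and a corrected p-value, a fold ratio, and a signed fold change (a score, negative where KO is lower). Its largest corrected p-value is 0.0499827. Depth was taken from genes at 0 in 1 library, whose deposited folds are whole multiples of a step.

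Differences of log2(density + 1), plain ratios and exact 95% intervals were computed with Python 3.11.15, numpy 2.4.6, pandas 2.3.3 and scipy 1.17.1, with no test. For 8 of 10617 symbols the row of highest mean density was used. Exon lengths, GC content and overlaps came from GENCODE M21, which covers 10515 of 10627 rows. The correction for GC content and length used 10 GC bins and 4 length bins. It took out each gene's bin median and put back the median over all binned genes. Named genes were the 5 genes, Trp53, Six2, the 10 endothelial markers and 2 not yet named of each other list with the highest mean density, and the 2 nearest to each of the 5. All others were chosen after their values were seen. The members, lists and alternatives were chosen with earlier results of these data known. The scripts were tested on simulated data.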

Additional observations from a re-analysis of the deposited data

How the results depend on the processing

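No difference has a replicate check, and no paired analysis was possible because each genotype has 1 library. All 5 genes stayed lower in KO under the 6 alternatives that alter a gene's value. The following values lay outside the gene's counting interval, put on the scale of log2(density + 1). Centring on the median difference of all genes gave -0.093 for Ramp2, -0.86 for Plvap, -0.33 for Cd34 and -0.99 for Cdh5. The scaling behind the authors' fold changes gave -0.15 for Ramp2. The correction for GC content and length gave -0.13 for Ramp2, -0.86 for Plvap and -0.70 for Cd34. A pseudocount of 0.25 gave -1.07 for Plvap, -0.50 for Cd34, -1.87 for Cdh5 and -1.05 for Sox18. For the same genes a pseudocount of 4 gave -0.71, -0.30, -0.43 and -0.23, and no pseudocount gave -1.11, -0.53, -2.53 and -1.42. Another pseudocount changes the scale itself, so for these values that interval does not measure counting error. Those without a pseudocount are the plain ratios on a log2 scale, which lie inside their own intervals.

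The count of the 5 genes at least 1.5-fold lower was 3, and 1 with a pseudocount of 4 or by a 2-fold rule, which follows from the stricter size. It was 2, Plvap and Cdh5, after centring and also over genes with a mean density of at least 1. It stayed 3 after the correction, with Cd34 in place of Sox18. The 8 endothelial markers at least 1.5-fold lower became 30 with a pseudocount of 0.25, 1 with 4, 41 without one, 4 after centring, 2 over genes with a mean density of at least 1 and 1 by the 2-fold rule; the 44 lower became 6 over genes with a mean density of at least 1, where 9 genes are left. Over all genes, 583 were lower and 101 higher at 1.5-fold. The counts were 1384 and 251 with a pseudocount of 0.25, 181 and 32 with 4, 2230 and 390 without one, and 180 and 27 by the 2-fold rule, and 184 were higher after centring, with 409 lower. Leaving out Ramp2, or markers that share exons with another gene, were choices made after seeing the data and changed these counts by less than 1.5 times.

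Of 96 counts of the other lists under the alternatives, 71 stayed within 1.5 times, and of 91 list medians 35 stayed within 0.1 on the log2 scale, 52 moved further and 4 changed sign. The endothelial median of -0.36 ranged from -1.31 without a pseudocount to -0.12 with one of 4. The medians that changed sign were the junction partners (0.011) and the CD34 family (0.063) after centring, the group F Sox list (0.22) over genes with a mean density of at least 1, and the nephron progenitor list (-0.052) after the correction. The causes were not tested.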

Other observations

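Ly6a, which codes for the surface protein Sca-1 of blood progenitors and of some endothelial and stromal cells, was the most abundant gene of the blood progenitor and platelet list. Its densities were 30.4 RPKM (WT) and 5.25 RPKM (KO), with a ratio of 0.173 (95% exact interval from 0.157 to 0.189), the same to 3 digits as that of Cdh5. Its density in WT was above that of Plvap, Cd34, Cdh5 and Sox18. Pf4, of platelets and macrophages, was at 1.48 and 0.299 RPKM, and Gata2, a transcription factor gene of blood progenitors and endothelium, at 2.37 and 1.06. Kit, the stem cell factor receptor, differed less, at 2.41 RPKM in WT and a ratio of 0.863. Among the mural genes, the pericyte marker Rgs5 was at 7.38 and 1.85 RPKM and the receptor gene Pdgfrb at 8.76 and 3.71.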
